A study of Mus musculus with 6 samples.

Results

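SOX proteins are transcription factors that bind DNA through a shared HMG box and are sorted into groups by the sequence of that box. Among 19937 genes measured on islet arrays, the 10 described here were the 3 SOXF genes Sox17, Sox7 and Sox18, the 3 SOXD genes Sox5, Sox6 and Sox13, the 3 SOXC genes Sox4, Sox11 and Sox12, and Sox9 of the SOXE group. They were chosen by name, with earlier results of these data known. The study itself had reported higher SOX6 expression after SOX17 overexpression. Its qRT-PCR legends and primer list do not name Sox6, so that report may rest on these same arrays. Each of the 10 genes had 1 probe set on the array with a single gene symbol. Its value on the 3 control and 3 Sox17-GOF arrays was read from the deposited log2 table. A difference of 1 on that scale is a doubling.

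Both groups were islets of male mice at 16 weeks of age that had received doxycycline in food and water for 24 hours. By the genotype given in the sample labels, control mice carried Ins2-rtTA, with no tetO-Sox17 listed. A figure legend of the study names tetO-Sox17 mice as controls of its protein stainings after the same pulse, and the labels were followed here. Sox17-GOF mice carried Ins2-rtTA and tetO-Sox17, so that doxycycline turns on a Sox17 transgene in cells that use the Ins2 promoter, the insulin-producing β cells. All mice came from an outbred background crossed to C57BL/6 for some generations, and the 3 samples of a genotype are described in the methods as biologically independent. The RNA was that of whole islets, so fewer cells of a type and less RNA per cell cannot be told apart.

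The SOXF genes are best known from blood vessels, lymphatics and early endoderm. Sox17 specifies definitive endoderm and arterial endothelium, Sox18 directs lymphatic endothelium, and Sox7 shares vascular roles with both. SOXD proteins carry no activation domain of their own. They pair with one another through a coiled coil and work beside other factors, Sox5 and Sox6 beside Sox9 in cartilage, and SOX6 in β cells has been tied to repression of the insulin genes through Pdx1. SOXC proteins are strong activators of embryonic progenitors, and Sox4 takes part in endocrine differentiation in the pancreas. Sox9 maintains pancreatic progenitors and stays on in ducts.

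Sox17 and the SOXD gene Sox6 were the 2 of 10 genes that passed the test, both higher in Sox17-GOF islets and by much the same amount, 1.59-fold (95% interval 1.37 to 1.84) and 1.58-fold (1.36 to 1.83). None fell, and the other 8 missed the threshold. The test was limma with Benjamini-Hochberg adjustment over 22961 named probe sets at a threshold of 0.05. By that rule 2.77% of all genes were higher and 2.44% were lower in Sox17-GOF islets. The median log2 fold change was 0.22 over the 10 genes and -0.01 over all genes, of which 47.1% were above 0 against 8 of the 10. At an unadjusted p under 0.05, 4 of the 10 were higher, against 8.93% of all genes. Every Sox17-GOF array lay above every control array for 4 of the 10, against 11.3% of all genes. Those 4 were Sox17 and all 3 SOXD genes. Sox17, the gene that the transgene was built to raise, is part of the median and of each of these counts.

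**Figure D1:**
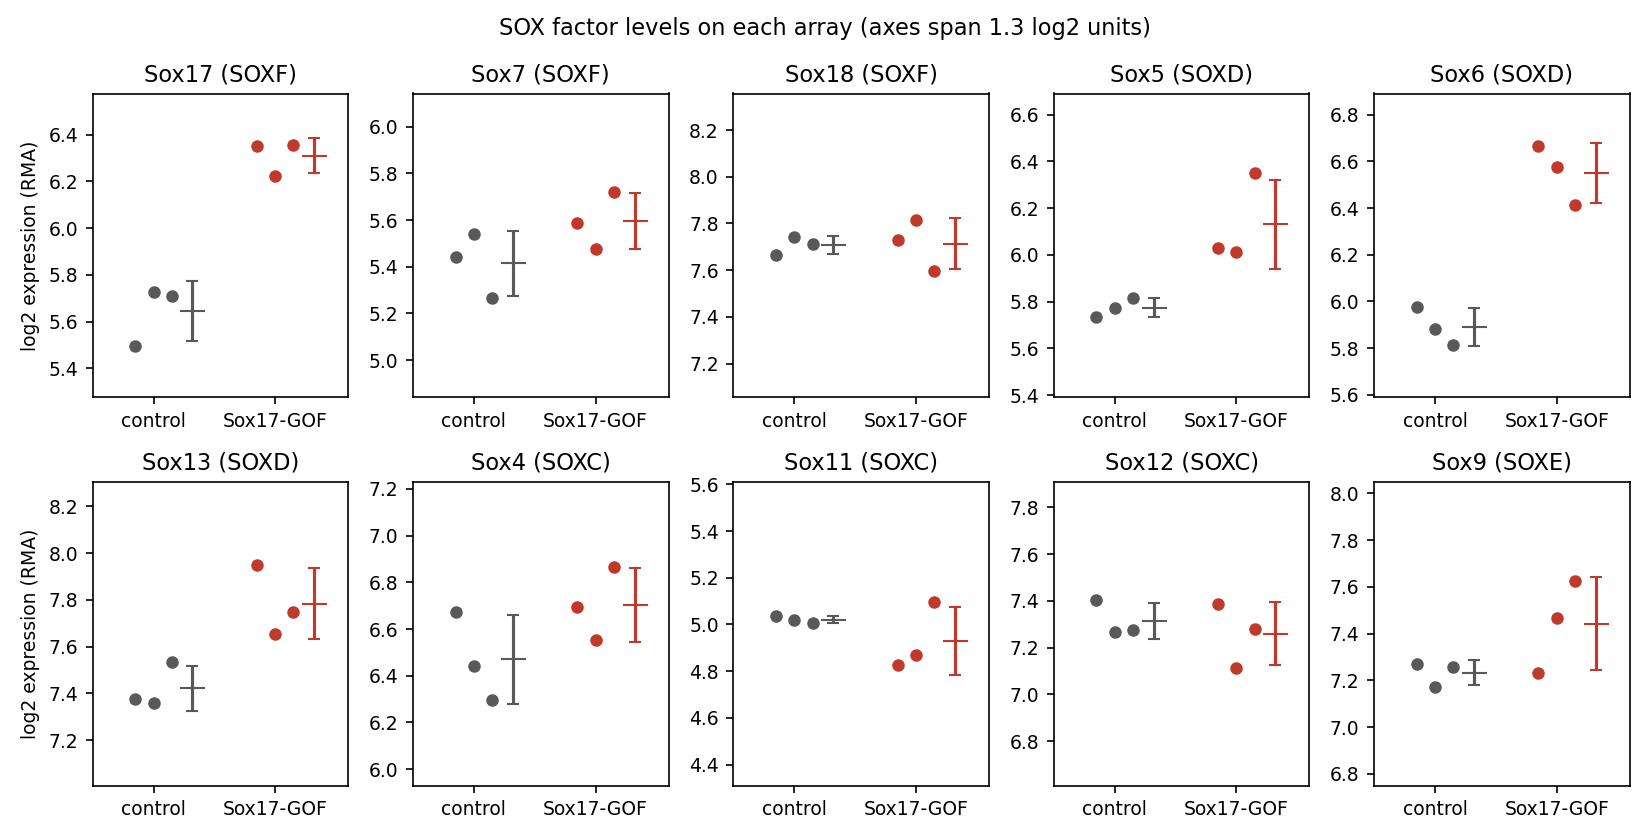
Log2 expression (vertical axes, each spanning 1.3 log2 units) of the 10 SOX genes on 3 control arrays (grey) and 3 Sox17-GOF arrays (red), with the mean and SD of each group beside the points. The groups are apart for Sox17, Sox5, Sox6 and Sox13 and overlap for the other 6 genes.

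Sox17, the gene carried by the transgene, was at 5.50, 5.72 and 5.71 on the control arrays and at 6.35, 6.22 and 6.36 on the Sox17-GOF arrays (log2 level). The means were 5.64 ± 0.13 and 6.31 ± 0.08 (SD, n = 3 each). All 3 Sox17-GOF arrays stood above all controls, and the gap between the groups was wider than the spread within either. The log2 fold change was 0.67 (SE 0.09, limma adjusted p = 0.00876), and 2.28% of genes had a larger one. With each array left out in turn it was 0.59 to 0.71 and passed each time. Under the methods' t-test, adjusted in the same way, it did not pass (adjusted p = 0.0906). Whether the probe set reads the transgene's transcript, the endogenous one or both was not tested. The log2 fold change is thus that of this probe set and not a measure of how far the transgene was induced.

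Sox7, which shares vascular roles with Sox17, was at 5.44, 5.54 and 5.26 in control and at 5.59, 5.48 and 5.72 in Sox17-GOF islets (log2 level). The groups overlapped, and the log2 fold change was 0.18 (SE 0.10, 95% interval -0.06 to 0.42, limma adjusted p = 0.405). Sox18 was at 7.67, 7.74 and 7.71 in control and at 7.73, 7.81 and 7.60 in Sox17-GOF islets (log2 level). Its log2 fold change was 0.01 (SE 0.08, 95% interval -0.19 to 0.20, limma adjusted p = 0.980), and its sign turned with single arrays left out. The change of Sox17 thus exceeded that of Sox7 by 0.49 and that of Sox18 by 0.66 on the log2 scale. The within-array differences did not overlap between the groups for either pair (exact permutation test, two-sided p = 0.1 each, the smallest that 3 against 3 arrays allow, and 0.167 when adjusted over the 5 pairs compared).

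Since Sox17, Sox7 and Sox18 are active in endothelium, the endothelial markers of the islets are given beside them. Of 13 markers, 0 rose, 1 fell and 12 did not pass, with a median log2 fold change of 0.07. At an unadjusted limma p under 0.05 they were split, 4 higher and 3 lower. None of the 13 had a mean below 4.63, the 20th percentile of all values. Their mean log2 level was 7.71 to 7.79 on control and 7.68 to 7.81 on Sox17-GOF arrays, and these ranges overlapped. The one that fell was Kdr, the main receptor for the vascular growth factor VEGF-A, from 8.65 to 7.97 (log2 fold change -0.68, SE 0.11, limma adjusted p = 0.0160). Its adjusted p was above 0.05, up to 0.0599, when control replicate 1, control replicate 3 or replicate 2 of the Sox17-GOF islets was left out. Pecam1, the adhesion molecule that defines endothelium, had a log2 fold change of 0.37 (adjusted p = 0.110) and Emcn, an endothelial surface mucin, one of -0.50 (adjusted p = 0.0622), neither passing.

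Sox6, which has been linked to repression of insulin genes, was at 5.98, 5.88 and 5.82 on the control arrays and at 6.67, 6.58 and 6.41 on the Sox17-GOF arrays (log2 level). The means were 5.89 ± 0.08 and 6.55 ± 0.13 (SD, n = 3 each). The lowest Sox17-GOF array stood well above the highest control. The log2 fold change was 0.66 (SE 0.09, limma adjusted p = 0.00924), and 2.33% of genes had a larger one. It ranged from 0.60 to 0.73 with each array left out in turn. Without control replicate 2 the adjusted p was 0.0511, and under the methods' t-test it was 0.0929. Sox6os, a transcript read from the opposite strand of the Sox6 locus through its own probe set, was at 5.68, 5.81 and 5.75 in control and at 5.74, 5.73 and 5.95 in Sox17-GOF islets. Its groups overlapped, with a log2 fold change of 0.06 (SE 0.09, limma adjusted p = 0.779).

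SOX proteins bind short motifs built around ACAA, and the starts of Sox6 are shown because it was the SOX gene other than Sox17 that passed. RefSeq windows of the 250 bases before each annotated start (GRCm38.p6) were searched on both strands for AACAAT (reverse complement ATTGTT) and ACAAAG (reverse complement CTTTGT), which share letters but cannot overlap. Among all 32851 windows, 9.42% held AACAAT, 16.5% held ACAAAG and 24% held either. Windows were given for 6 of the 10 genes, Sox6 with 6 starts and Sox5, Sox13, Sox4, Sox11 and Sox12 with 1 each. A match was found in 5 of the 6 Sox6 windows and in 0 of the other 5. Of the 24 genes with 6 windows, 66.7% had a match in at least 1, so that a match near some Sox6 start is common for a gene with so many starts. Below are 3 of the 8 stretches, each of 30 bases on the minus strand that Sox6 is read from, with the matching letters in capitals. The first holds AACAAT and its reverse complement 5 letters apart, 236 bases before a start, and the other two hold ACAAAG in each direction.
Sox6, chr7:115824923-115824952: tctttcAACAATgcttgATTGTTttcacaa
Sox6, chr7:116038840-116038869: tttttttcaggaACAAAGggaatgtggaaa
Sox6, chr7:116031197-116031226: ctctcttctgtcCTTTGTagtcacatgtcc
These letters describe the windows. Whether SOX17 or any other protein sat there was not measured.

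Sox5, which pairs with Sox6, was at 5.73, 5.77 and 5.81 in control and at 6.03, 6.01 and 6.35 in Sox17-GOF islets (log2 level). The groups did not overlap, and Sox17-GOF replicate 3 was the highest. The log2 fold change was 0.36 (SE 0.11, 95% interval 0.11 to 0.60), with an unadjusted p of 0.0103 by limma that did not pass after adjustment (adjusted p = 0.110). With each array left out it ranged from 0.25 (without Sox17-GOF replicate 3) to 0.42 (without Sox17-GOF replicate 2). Sox13, the SOXD protein known as an autoantigen in type 1 diabetes, was at 7.37, 7.36 and 7.53 in control and at 7.95, 7.65 and 7.75 in Sox17-GOF islets (log2 level). Here too the groups were apart, with the highest value on Sox17-GOF replicate 1. Its log2 fold change was 0.36 (SE 0.10, 95% interval 0.13 to 0.60), with an unadjusted limma p of 0.00772 and an adjusted p of 0.0948. The 3 SOXD genes thus stood higher on every Sox17-GOF array, 1.58-fold for Sox6, 1.28-fold for Sox5 and 1.29-fold for Sox13, and Sox6 alone passed. The change of Sox6 exceeded that of Sox5 by 0.30 (exact permutation test, two-sided p = 0.3, adjusted 0.375) and that of Sox13 by 0.30 (exact p = 0.1, adjusted 0.167) on the log2 scale. It differed from the change of Sox17 by 0.01 (exact p = 1), but such a test cannot show that changes of different probe sets are equal.

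**Figure D2:**
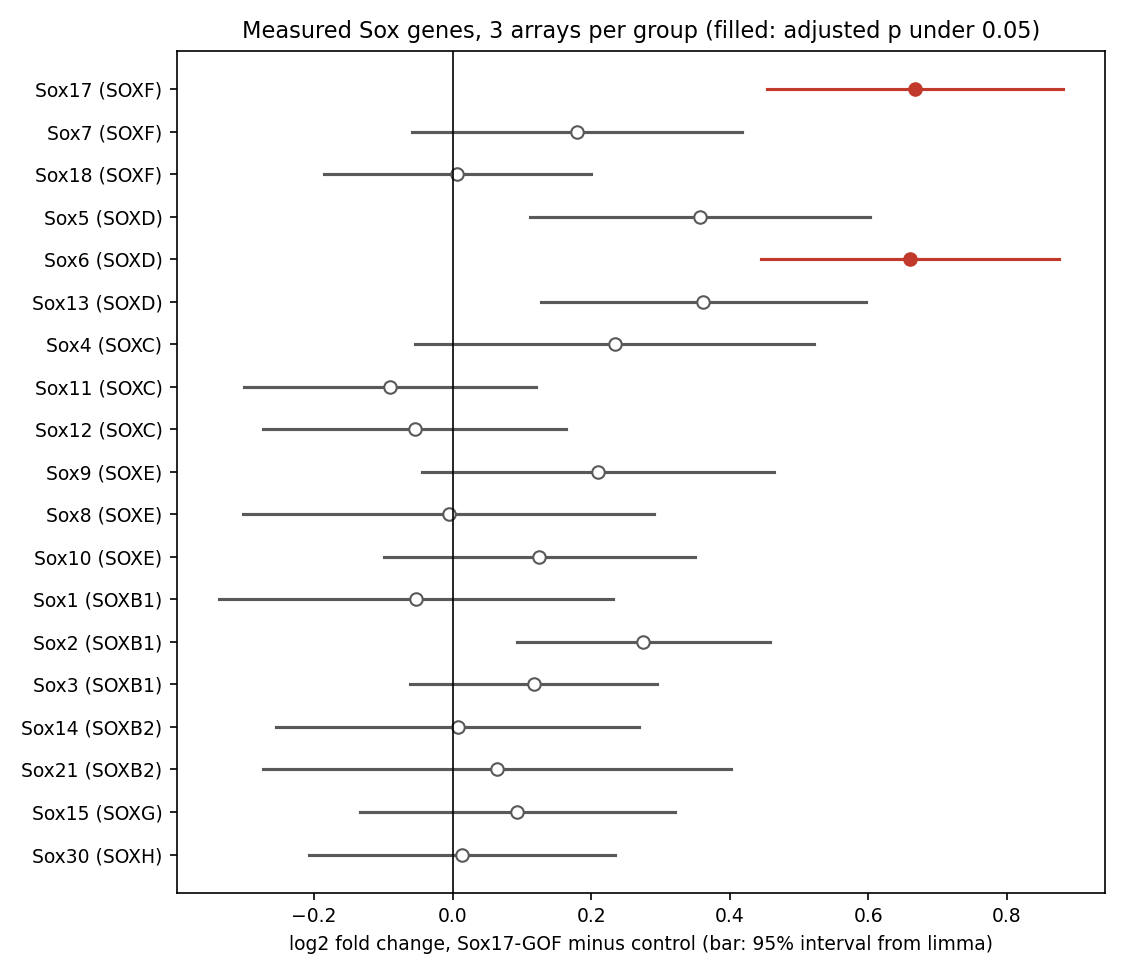
Log2 fold change (horizontal axis, Sox17-GOF minus control) of the 19 measured Sox genes with its 95% interval from limma, 3 arrays per group, ordered by SOX group. Filled points passed an adjusted p of 0.05, which Sox17 and Sox6 did at 0.67 and 0.66, and the intervals of Sox5, Sox13 and Sox2 also lie above 0 before adjustment.

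The SOXC genes gave no call. Sox4, which acts in endocrine progenitors, was at 6.67, 6.44 and 6.29 in control and at 6.69, 6.55 and 6.86 in Sox17-GOF islets (log2 level). The groups overlapped, and the log2 fold change of 0.23 (SE 0.12, 95% interval -0.05 to 0.52, limma adjusted p = 0.367) was smaller than the range of the 3 controls. Sox11, a factor of developing neurons, was at 5.04, 5.02 and 5.01 in control and at 4.82, 4.87 and 5.10 in Sox17-GOF islets, signals not far above the 20th percentile of all values (4.63). Its log2 fold change was -0.09 (SE 0.09, limma adjusted p = 0.662). Sox12 was at 7.40, 7.27 and 7.28 in control and at 7.39, 7.11 and 7.28 in Sox17-GOF islets (log2 level), with a log2 fold change of -0.06 (SE 0.09, 95% interval -0.27 to 0.16, limma adjusted p = 0.817). Sox11 and Sox12 were the 2 of the 10 genes with a fitted change below 0, and neither moved beyond its spread.

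Sox9, the progenitor and duct factor, was at 7.27, 7.17 and 7.26 in control and at 7.23, 7.47 and 7.63 in Sox17-GOF islets (log2 level). Sox17-GOF replicate 1 lay among the controls and replicates 2 and 3 lay above them, which gave a log2 fold change of 0.21 (SE 0.11, 95% interval -0.04 to 0.46, limma adjusted p = 0.360). Of the 5 measured duct markers 0 passed and 1 (Cftr) lay below the 20th percentile. Their mean was likewise lowest on Sox17-GOF replicate 1 and highest on replicate 3. The same order held for the means of the endothelial, acinar, stellate and fibroblast, Schwann and glial, and leukocyte markers. Relative to the control mean, Sox9 stood at 0.00, 0.24 and 0.39 on Sox17-GOF replicates 1, 2 and 3, and the mean of the duct markers at -0.28, 0.28 and 1.06 (log2 differences). Krt19, a keratin of duct cells, was at 6.74, 7.07 and 9.13 on those arrays against 6.16 to 6.53 in control (log2 fold change 1.32, limma adjusted p = 0.253). Krt7, another duct keratin, went the other way, at 10.26, 10.36 and 10.08 on the same arrays against 10.54 to 10.62 in control (log2 fold change -0.34, limma adjusted p = 0.0849). With each array left out the change of Sox9 ranged from 0.12 (without Sox17-GOF replicate 3) to 0.31 (without Sox17-GOF replicate 1) and did not pass. The part of duct cells in the Sox9 values was not tested.

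Sox17-GOF replicate 3 was also the highest array for Sox7, Sox5, Sox4 and Sox11, and for Sox17 level with replicate 1, whereas Sox6 and Sox13 were highest on replicate 1. Among the Sox17-GOF arrays, the mean of every marker list but that of β cells was highest on replicate 3 as well. Of the 9 stellate and fibroblast markers, 0 passed limma's adjusted test and 5 were higher at an unadjusted p under 0.05. For 5 of the 9, every Sox17-GOF array lay above every control array, and the median log2 fold change of the 9 was 0.34. Their mean log2 level was 6.51 to 6.89 on control and 6.87 to 7.40 on Sox17-GOF arrays, and none had a mean below the 20th percentile. The acinar markers (5 measured, 0 passed, none below the 20th percentile) had mean log2 levels of 12.91 to 13.19 on control arrays and of 12.31 to 13.36 on Sox17-GOF arrays, the lowest on replicate 1. Schwann and glial markers (6 measured, 0 passed, median 0.11) and leukocyte markers (6 measured, 0 passed, median -0.09) overlapped between the groups. Without Sox17-GOF replicate 3 the log2 fold change was 0.73 for Sox6 (limma adjusted p = 0.00870) and 0.64 for Sox17, and both passed. It was 0.25 for Sox5 and 0.38 for Sox13, and neither passed. What the cells of these lists add to the SOX values was not tested.

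**Figure D3:**
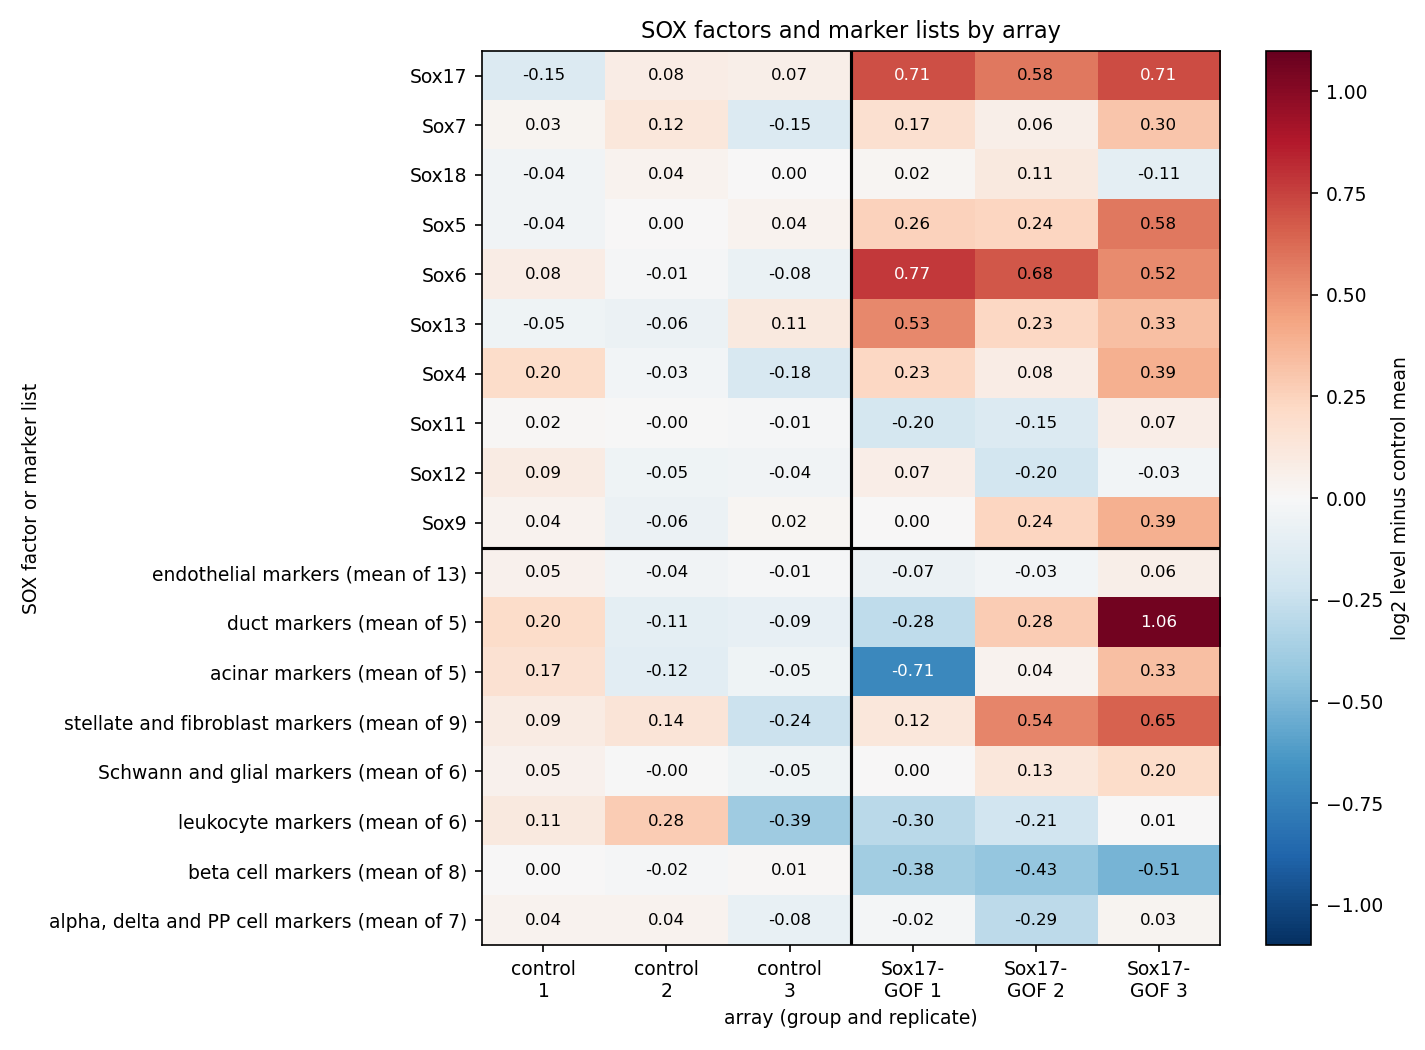
Log2 level of each SOX gene (upper 10 rows) and mean log2 level of each marker list (lower 8 rows) on each array, minus its control mean. Sox6 stands at 0.77 on Sox17-GOF replicate 1 and 0.52 on replicate 3, and Sox5 at 0.26 and 0.58. The duct markers stand at -0.28 and 1.06 on the same arrays.

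The other 9 measured Sox genes gave no call, with log2 fold changes from -0.05 to 0.28 and a median of 0.06. The largest was that of Sox2, a factor of pluripotent and neural progenitor cells, at 4.31, 4.35 and 4.20 in control and 4.63, 4.51 and 4.56 in Sox17-GOF islets (log2 level). All Sox17-GOF arrays were higher, but the group means of 4.29 and 4.57 were under the 20th percentile (log2 fold change 0.28, SE 0.08, limma adjusted p = 0.101). Sox10, a marker of Schwann cells and a SOXE relative of Sox9, had a log2 fold change of 0.13 (limma adjusted p = 0.557), and Sox8, the third SOXE gene, one of -0.01. Sox1, Sox3, Sox14, Sox15, Sox21 and Sox30 lay between -0.05 and 0.12.

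SOX proteins act with partners, and the partners measured here gave no call. Of 16 measured partners and cofactors 0 passed (limma, 3 higher and 2 lower at an unadjusted p under 0.05), with a median log2 fold change of -0.09. Ctnnb1, the β-catenin that SOX17 binds, had a log2 fold change of -0.10, and Ctbp2, a corepressor that SOX6 binds, one of -0.07. The values nearest to the threshold were those of Ep300, an acetyltransferase, at -0.34 (limma adjusted p = 0.0528) and of Smad2, which carries activin and TGF-β signals, at 0.40 (limma adjusted p = 0.0590). The 7 measured endoderm factors downstream of SOX17 gave no call either (0 at an unadjusted p under 0.05), with a median of 0.03. Foxa2, a direct target of SOX17 in the embryo, was at -0.23 (limma adjusted p = 0.267), and Gata6, Gata4 and Hnf4a were at -0.18, 0.14 and 0.03.

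Genes that depend on SOXF factors in vessels gave 1 call among 9, with a median log2 fold change of 0.07. Vcam1, an adhesion molecule that SOX18 and its relatives activate in endothelium, rose from 6.35 to 6.89 (log2 fold change 0.54, SE 0.11, limma adjusted p = 0.0404). This call was lost with any array left out (adjusted p up to 0.125). Dll4, an arterial Notch ligand, had a log2 fold change of -0.32 and did not pass. The 8 cartilage genes that Sox5, Sox6 and Sox9 drive together gave no call, although each had a positive value, up to 0.20 (median 0.06, 0 at an unadjusted p under 0.05).

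Genes on the axis of Sox4 and Sox9 in pancreatic progenitors gave 2 calls among 10, both higher. Jag1, a Notch ligand of duct and progenitor cells, was at 5.48, 5.67 and 5.67 in control and at 6.20, 6.33 and 6.19 in Sox17-GOF islets (log2 level). The groups were far apart (log2 fold change 0.64, SE 0.09, limma adjusted p = 0.00876), and the call held with each array left out. Fgfr2, the receptor that forms a loop with Sox9 in progenitors, rose from 4.91 to 5.54 (log2 fold change 0.63, SE 0.13, limma adjusted p = 0.0371). The control signals of Fgfr2 were not far above the 20th percentile of all values (4.63). Its call was lost without any 1 of the controls and without Sox17-GOF replicate 2 or 3 (adjusted p up to 0.118), and with the replicate number as a block (adjusted p = 0.0708). It was also lost when all probe sets were tested (limma adjusted p = 0.0905) and under the methods' t-test (adjusted p = 0.191). The other 8 did not pass. Neurog3, the endocrine progenitor factor that Sox4 and Sox9 support, had a log2 fold change of -0.33 (limma adjusted p = 0.417), and Hes1, a Notch target, one of 0.10.

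SOX6 acts on insulin genes through Pdx1, so the insulin gene factors are given beside Sox6. Of 8 measured, 0 rose and 1 fell, with a median log2 fold change of -0.14 and none above 0. Ins2, an insulin gene counted among the 8 and the brightest of them, was at 13.09 in control and 13.07 in Sox17-GOF islets (mean log2 level). Its log2 fold change was -0.01 (limma adjusted p = 0.960). Mafa was at -0.01 as well (limma adjusted p = 0.958). Whether a probe set as bright as that of Ins2 can still show a change was not tested. Pdx1 fell from 10.90 to 10.44 (log2 fold change -0.47, SE 0.09, limma adjusted p = 0.0327), a call that was lost with any array left out (adjusted p up to 0.113) and with the replicate number as a block (adjusted p = 0.0925). Of the 15 other settings described below, the Pdx1 call held in 5. By qRT-PCR the study found decreases of insulin and Pdx1 RNA, neither statistically significant. Neurod1, which activates the insulin promoter, was at -0.46 (limma adjusted p = 0.0519) and did not pass. Of 8 β cell markers 4 fell, among them Slc2a2, the glucose transporter (log2 fold change -1.01, limma adjusted p = 0.00745), and Ucn3, a hormone of mature β cells (-1.03, limma adjusted p = 0.00436). The other 2 were Pdx1 and G6pc2, a glucose-6-phosphatase of β cells (-0.74, limma adjusted p = 0.0206). The G6pc2 call was lost without any 1 of the controls or without Sox17-GOF replicate 1 (adjusted p up to 0.0780) and with the replicate number as a block (adjusted p = 0.0607). Ins2, Mafa, Iapp and Nkx6-1 did not pass, with Iapp at -0.09 and Nkx6-1 at -0.17. The mean log2 level of the 8 markers was 10.87 to 10.90 on control and 10.37 to 10.51 on Sox17-GOF arrays. The 7 measured markers of α, δ and PP cells gave no call, with a median of -0.08. Among them Gcg, Ppy, Ttr and Sst had control means of 12.95 to 13.71, about as bright as Ins2. Whether the higher Sox6 and the lower β cell markers were linked was not tested.

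**Figure D4:**
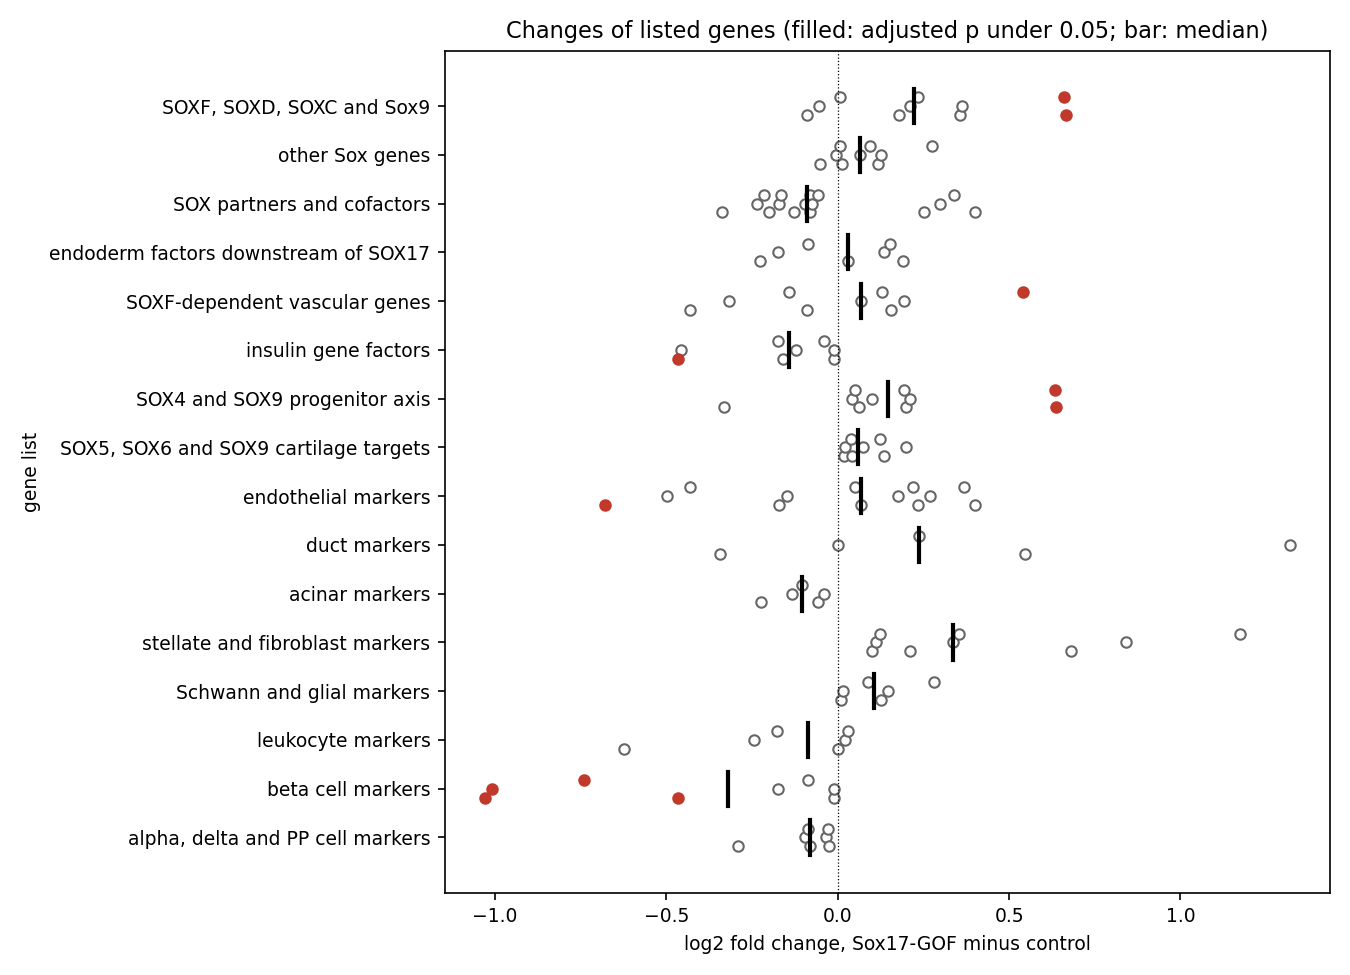
Log2 fold change (horizontal axis, Sox17-GOF minus control) of each measured gene in the SOX set and in the lists given beside it, with the list median as a bar. Filled points passed an adjusted p of 0.05, and the SOX set has 2 of 10 such genes, both higher, whereas the β cell markers have 4 of 8, all lower.

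The genes whose array pattern was closest to Sox17 and to Sox6 were found by the root mean square difference over the 6 arrays after each gene's control mean was subtracted. For Sox17 the 5 closest were Pbld1 (0.04 on the log2 scale), Slc25a11 (0.07), Ltf (0.08), Pcmtd2 (0.08) and Jag1 (0.09). For Sox6 they were Cnrip1 (0.05), Chchd7 (0.05), Tpgs2 (0.05), Cspg5 (0.06) and E330034G19Rik (0.06). The 5 genes near Sox17 had log2 fold changes of 0.61 to 0.67 and the 5 near Sox6 of 0.63 to 0.72. With 6 arrays in 2 groups such a measure mostly finds genes with the same difference between the groups.

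The calls on the 10 genes were set against 15 other settings. Sox17 passed in 14 and Sox6 in 13 of them, and none of the other 8 genes passed in any, with a lowest adjusted p of 0.0705 for Sox13 after quantile normalization. The median over all probe sets of an array was 6.35 to 6.38 in the control group and 6.31 to 6.41 in the Sox17-GOF group.

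**Figure D5:**
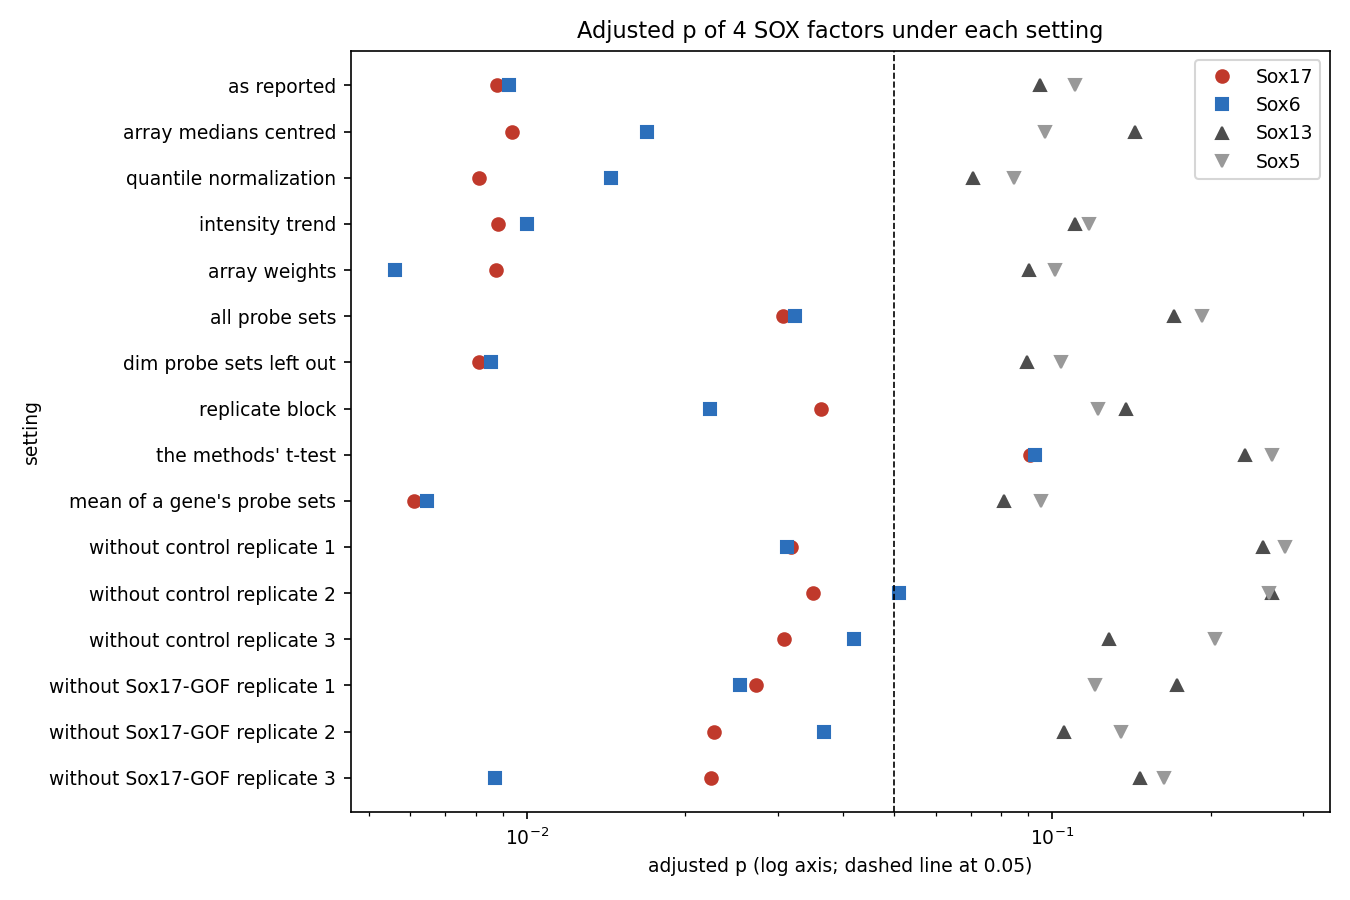
Adjusted p (log axis) of Sox17, Sox6, Sox13 and Sox5 as reported and under 15 other settings, with the threshold of 0.05 dashed. Sox17 crosses it in 1 setting and Sox6 in 2, while Sox13 and Sox5 stay above it in each.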

How the data were processed

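Total RNA of islets, isolated by collagenase digestion and a Ficoll gradient, was amplified, labelled with biotin and hybridized to Affymetrix Mouse Gene ST 1.0 arrays, 1 per sample. By RMA the authors obtained the log2 values that were deposited, in GeneSpring 10.1 according to the methods and in Affymetrix Expression Console according to the submitters' processing notes. It was not settled which was used. RMA equalizes the probe intensities of the arrays before it summarizes probe sets, which can hide a shift of most genes.

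Samples were grouped by the genotype in the labels and the fit was made with limma 3.58.1 (R 4.3.3; lmFit, then eBayes with no trend). Benjamini-Hochberg adjustment covered 22961 of 34760 probe sets, those with a gene symbol (11799 had none). Of several probe sets with a single symbol, the brightest stood for the gene. Named are the 10 SOX genes, other Sox genes, list genes that passed or on which a result turned, and the 5 genes of most similar pattern. The 10 genes and the lists were chosen with earlier results of these data known. Alternatives were median centring, quantile normalization, array weights, an intensity trend, averaging over probe sets per gene, testing all probe sets or leaving out dim ones, the methods' t-test, a replicate block and omission of each array. Arrays of a group correlated at 0.984 to 0.991. The number of arrays limits the precision. The procedure was tested on simulated data.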

Additional observations from a re-analysis of the deposited data

How the results depend on the processing

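Of 150 values for the 10 SOX genes over 15 alternatives, 143 kept their sign and their side of the threshold, 3 lost a call and 4 turned sign. Under the methods' t-test 0 of the 10 passed after adjustment, and 71 probe sets did, against 2 and 1133 with limma. At the methods' own threshold, an unadjusted p under 0.05 with a fold of 1.3, 2 of the 10 passed (Sox17 and Sox6) and 7.07% of named probe sets, and at that p alone 4 of the 10 and 16.2%. With each array left out, 1 to 2 of the 10 and 385 to 1020 probe sets passed, and the 1 gene that passed without control replicate 2 was Sox17. Fewer probe sets also passed when all were tested (558) and with a replicate block (720), while 2 of the 10 passed in both. The first of these settings adjusts over 34760 probe sets rather than 22961, and the second fits more terms to the same 6 arrays. How much this accounts for the lower counts was not tested. Signs turned for genes near 0. With each array left out Sox12 ranged from -0.12 to 0.018, above 0 without Sox17-GOF replicate 2, and Sox18 from -0.044 to 0.065. Sox18 was -0.013 without control replicate 1, -0.00025 without Sox17-GOF replicate 1 and -0.044 without Sox17-GOF replicate 2.

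With the replicate number as a block, Sox17 had an adjusted p of 0.0362 and Sox6 of 0.0224. Over all named probe sets, the deviations of arrays of the same number from their group means correlated at 0.05, -0.02 and -0.04. Whether arrays of the same number were prepared together was not tested, and such correlations cannot settle it. Signals near the background, as those of Sox11 and Sox2, understate fold changes. The control means of Sox17 (5.64) and Sox6 (5.89) also lay below every array median (6.31 to 6.41). Whether their fold changes are understated was not tested.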
